A study of Mus musculus with 62 samples.

Results

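The RNAs described here are 6 short noncoding transcripts made by RNA polymerase III, the genes Rn7s1, Rn7s2, Rn7sk, Bc1, Rmrp and Rpph1, among 53975 gene identifiers in the deposited expression tables. They were taken by gene name, and the names were chosen by measured values of these libraries, among them the high shares of TPM of Rn7s1 and Rn7s2. Their levels are therefore a description, and the tests below set differences between groups against the spread between libraries without being independent support. All 6 passed the filter on low values, a mean of at least 1 TPM (a length-corrected transcript level with the same sum in every library), in hippocampus and in the cell line.

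The libraries used are the 31 long-RNA libraries of the series, 17 from mouse hippocampus and 14 from HT-22, an immortalised line derived from mouse hippocampal neurons. The mice either carried the App NL-G-F knock-in allele, a humanised App gene with familial Alzheimer's disease mutations (called APP), or were C57BL/6J controls (called WT), and were 3, 6 or 12 months old. Each group held 3 mice, except WT at 3 months with 2, and the hippocampi of both hemispheres of a mouse were pooled. HT-22 cells at passage 4 were treated for 24 h with an antisense oligonucleotide of locked nucleic acid (LNA), either at 150 nM and directed at Hsf1, the heat shock transcription factor, or with a scrambled sequence, for which the labels give 50 uM. Amyloid beta 1-42 (Aβ42) at 30 uM, or the same amount of the reversed 42-1 peptide, each in DMSO, was added next, so all 4 groups had an LNA, a peptide and the solvent. There were 4 libraries for each scramble group and 3 for each anti-Hsf1 group. Nothing in the labels says that the HT-22 libraries came from separate cultures, so p-values there measure only the spread between these libraries, which may be technical. In bulk samples, fewer cells of a type and less RNA per cell cannot be told apart.

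RNA polymerase III makes short, abundant RNAs that are not translated, including transfer RNAs and the RNA cores of several ribonucleoprotein particles. Rn7s1 and Rn7s2 encode 7SL RNA, the scaffold of the signal recognition particle, which pauses the ribosome on secreted and membrane proteins and docks it at the endoplasmic reticulum. Rn7sk encodes 7SK RNA, which with Hexim and Larp7 proteins holds the elongation kinase P-TEFb (Cdk9 with a cyclin T) inactive. Bc1 encodes a rodent brain cytoplasmic RNA found in neurons and their dendrites, where it represses the start of translation. Rmrp and Rpph1 encode the RNA subunits of RNase MRP, which cuts ribosomal RNA precursors, and of RNase P, which trims transfer RNA precursors.

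On the GRCm38 build that the files use, Rn7s1 (ENSMUSG00000099021) lies on the plus strand at chr12:69159295-69159594 and Rn7s2 (ENSMUSG00000099250) on the minus strand at chr12:69361182-69361481. Rn7sk (ENSMUSG00000065037) lies on the minus strand at chr9:78175303-78175633, and Bc1 (ENSMUSG00000115783) on the plus strand at chr7:144914470-144914637. Rmrp (ENSMUSG00000088088) is on the minus strand at chr4:43492788-43493058 and Rpph1 (ENSMUSG00000092837) on the minus strand at chr14:50807449-50807767. They are 300, 300, 331, 168, 271 and 319 bases long, and the file entries span the whole RNA. Other annotated genes overlap 4 of them: Gm47295 and Gm47287 in Rn7s1, Gm47299 and Gm47305 in Rn7s2, Ccdc107 and AL732506.1 in Rmrp, and Ccnb1ip1 in Rpph1. Apart from Gm47299, these stayed at or below 22.4 TPM in every library, whereas Rn7s1, Rn7s2, Rmrp and Rpph1 never fell below 338 TPM.

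The annotation and the GRCm38.p6 genome decide how the 7SL values are to be read. The 300 bases of Rn7s2 are identical to those of Rn7s1, with 0 substitutions and 0 gap columns, so a read from either gene cannot be placed, and the split of 7SL between the genes is an assignment. Rn7s2 shares its last 77 bases with Gm47299, an annotated miRNA gene of 80 bases that runs 3 bases past the end of Rn7s2 (ENSMUSG00000105145, chr12:69361179-69361258, minus strand).

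The sequences of Rn7sk and Bc1 were read from the same genome. Rn7sk is shown because its difference at 6 months kept its call whichever library was left out. Its leading 120 bases are given (chr9:78175514-78175633, minus strand), and capitals mark its 3 copies of GATC, the letters of a motif in the stem that binds Hexim; GATC reads the same on both strands. Of 45420 annotated transcripts, 60.8% hold GATC in their leading 331 bases and 7.76% hold it at least 3 times, and Rn7s1 and Rn7s2 hold it as well.
Rn7sk: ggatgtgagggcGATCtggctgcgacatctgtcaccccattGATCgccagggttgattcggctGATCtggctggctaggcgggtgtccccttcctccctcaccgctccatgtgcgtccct
Bc1 is shown because it separates brain from the cell line. Capitals mark matches to the A box (bases 14 to 24) and the B box (bases 57 to 66), the promoter elements inside genes of the transfer RNA type, each searched with 3 unspecified positions.
Bc1: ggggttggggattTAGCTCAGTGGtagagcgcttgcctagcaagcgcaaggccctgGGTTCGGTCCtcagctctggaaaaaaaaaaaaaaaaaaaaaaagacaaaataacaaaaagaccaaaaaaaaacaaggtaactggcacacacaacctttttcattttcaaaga
Searched on both strands in the leading 168 bases of 49113 annotated transcripts, the A box letters occur in 0.918% and the B box letters in 0.802%, and both occur on the gene's own strand in 2 of them. Bc1 is the only member with a match to either in its sequence, which says only that these letters are not in the other windows.

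Together the 6 RNAs took a large share of the hippocampal libraries. They held 13.6% ± 5.00 (SD, n = 17) of TPM in hippocampus, from 4.27% to 22.7%, and 3.00% ± 1.31 (SD, n = 14) in HT-22, from 1.57% to 6.14%. Almost all of this was 7SL: Rn7s1 and Rn7s2 summed held 12.3% ± 4.60 (SD, n = 17) in hippocampus and 2.39% ± 1.15 (SD, n = 14) in HT-22. By mean TPM over the hippocampal libraries, Rn7s1 ranked 4, Rn7s2 5, Rn7sk 9, Rpph1 20, Rmrp 33 and Bc1 158 among all genes. In HT-22 Rn7s1 ranked 5, Rn7s2 8, Rn7sk 22, Rmrp 28, Rpph1 70 and Bc1 13490. Because the libraries sum to the same TPM, a change in so large a share moves every other value, and results are therefore also given after median of ratios scaling, in which the median gene is set equal between libraries.

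**Figure D1:**
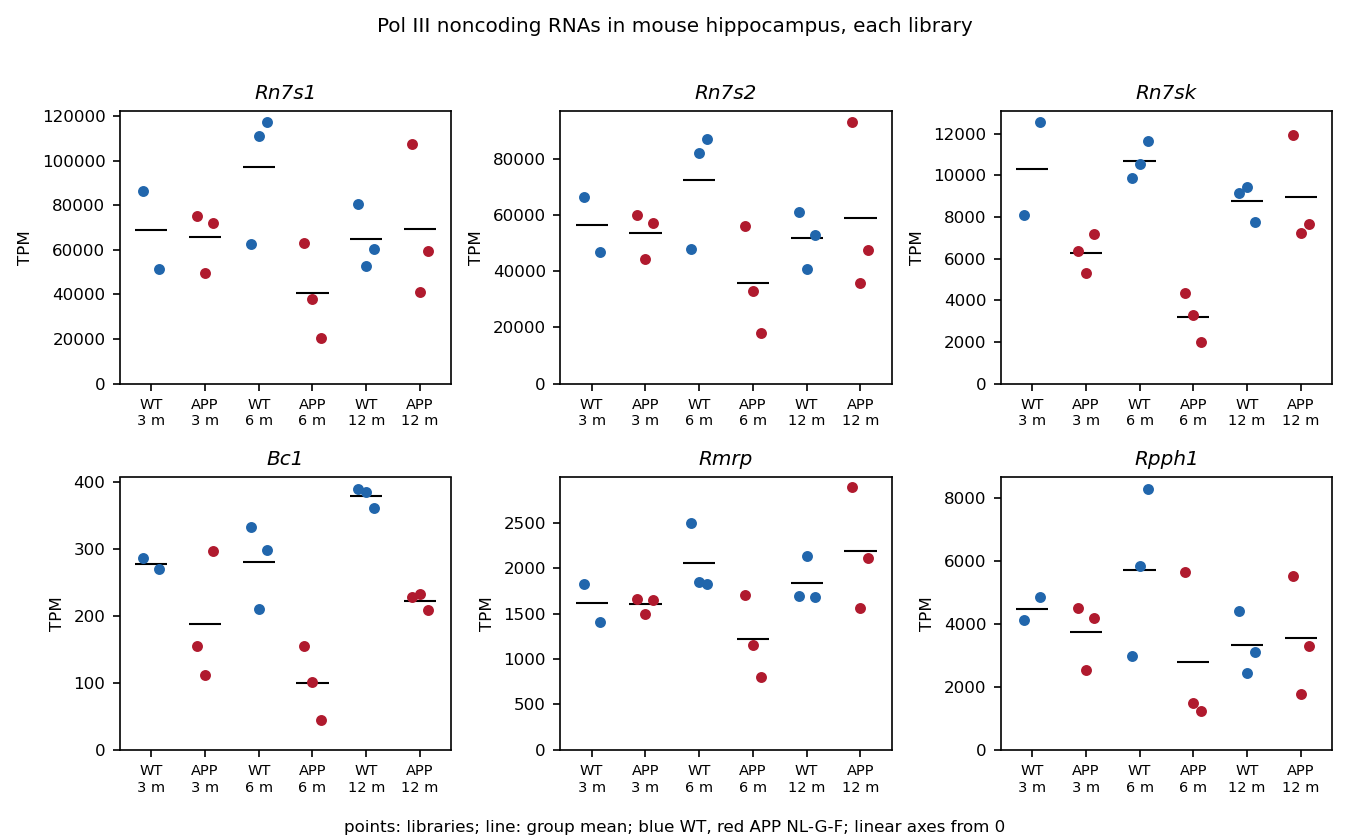
Levels of the 6 RNAs in the 17 hippocampal libraries, by group, in TPM on linear axes from 0; each point is a library and each line the group mean, with WT in blue and APP in red. The APP libraries at 6 months lie lowest on average for every RNA, and for Rn7sk, Bc1 and Rmrp all 3 lie below all 3 WT libraries of that age.

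The split of 7SL between Rn7s1 and Rn7s2 moved with Gm47299. This gene stood above 1000 TPM in 16 of the 31 libraries, at 20896 to 57630 TPM in 9 hippocampal and 2150 to 11645 TPM in 7 HT-22 libraries, and at 0.102 to 1.28 TPM in the other libraries. In hippocampus the ratio of Rn7s2 to Rn7s1 was 0.740 to 0.799 where Gm47299 was high and 0.869 to 0.910 where it was low, with no overlap. Adding Gm47299 back to Rn7s2 in proportion to its length gave 0.866 to 0.902 and 0.869 to 0.910. In HT-22 the ratio was 0.587 to 0.830 where Gm47299 was high and 0.800 to 0.889 where it was low, and 0.784 to 0.874 and 0.800 to 0.889 after the addition. All 3 WT libraries at 6 months had the high state and all 3 APP libraries at 6 months the low state, so the Rn7s2 values of the 2 groups were split differently at that age. The paralogue Rn7s6, 85.1% identical to Rn7s1, stood in a ratio to it of 0.113 to 0.147 in hippocampus and 0.114 to 0.204 in HT-22.

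**Figure D2:**
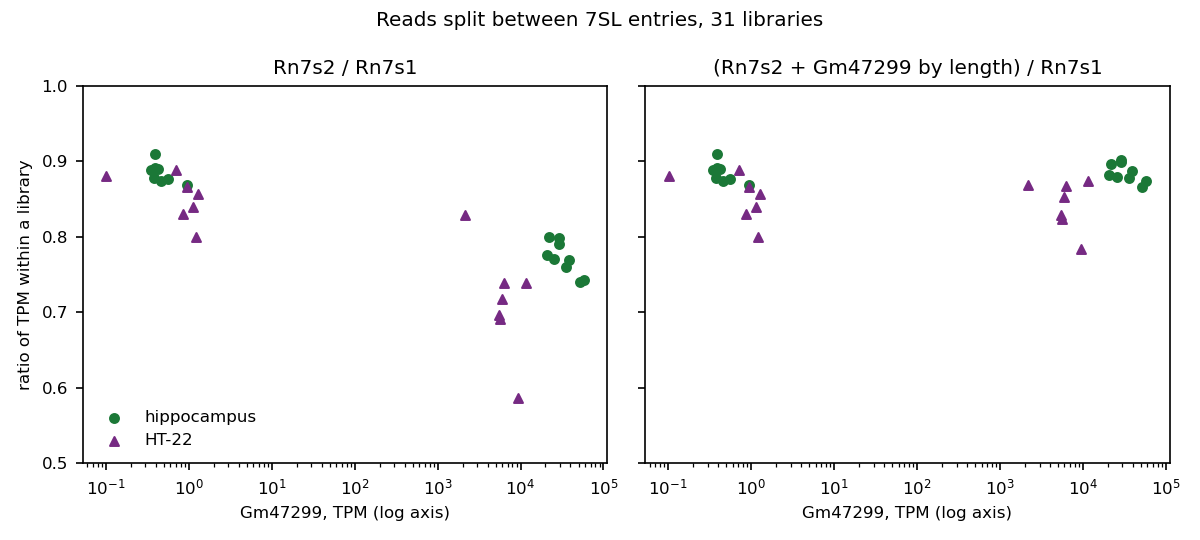
Ratio of Rn7s2 to Rn7s1 TPM per library, as deposited (left) and after Gm47299 is added to Rn7s2 by length (right), against the TPM of Gm47299 on a log axis; each point is a library, circles hippocampus and triangles HT-22. The hippocampal libraries form separate ranges, 0.740 to 0.799 and 0.869 to 0.910, that come together after the addition.

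At 6 months, 5 of the 6 RNAs were lower in APP than in WT hippocampus and Rpph1, lower on average, did not pass the test. Over all 17840 genes tested, 0.404% were called lower and 57.6% higher (limma, Benjamini-Hochberg adjusted p below 0.05), and the median change was 0.60 on the log2(TPM + 1) scale, against a median of -1.31 for the 6. After median of ratios scaling the same 5 were called lower, while 1.24% of all genes were called lower and 0.42% higher, with a median change of 0.00 for all genes and -2.02 for the 6. The 5 called members were thus lower on TPM, where most genes read higher, and lower again with that general shift taken out. Rn7s1 and Rn7s2 are identical in sequence, so their calls are not separate results. 7SL enters the count of 5 and the medians of the 6 under both names.

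7SL was lower in APP at 6 months on both scales. Rn7s1 stood at 63174, 37858 and 20456 TPM in the APP libraries and at 62562, 110970 and 117360 TPM in WT. APP replicate 1 was level with the lowest WT library, and the other APP libraries were below all WT libraries. The change was -1.35 (SE 0.410, limma adjusted p 0.0107) on TPM and -2.07 (SE 0.454, limma adjusted p 0.0357) after scaling, where the ranges no longer overlapped. The share of all genes without overlap after scaling is not given. Rn7s2 stood at 56157, 33070 and 18204 TPM in APP and at 48197, 82153 and 87252 TPM in WT, with APP replicate 1 again inside the WT range. The change was -1.12 (SE 0.392, limma adjusted p 0.0225) on TPM, -1.84 (SE 0.431, limma adjusted p 0.0474) once scaled, and -1.38 (limma adjusted p 0.0107) on TPM with Gm47299 added back. Leaving out APP replicate 3, the lowest library for every member, ended both calls on TPM, with changes of -0.93 (limma adjusted p 0.0752) for Rn7s1 and -0.70 (limma adjusted p 0.144) for Rn7s2. Rn7s2 also lost its call on TPM without WT replicate 2 (0.0707) or 3 (0.0746), and after scaling both genes were called only without APP replicate 1 (limma adjusted p 0.0179 and 0.0203) among the fits that left out a library, and had limma adjusted p up to 0.121 and 0.150 in the others.

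7SK was lower in every APP library than in every WT library at 6 months. Rn7sk stood at 4354, 3298 and 1988 TPM in APP and at 9877, 10538 and 11661 TPM in WT at 6 months. The highest APP library was below every WT library by a wide margin, and the WT libraries lay close together. Ranges that did not overlap with APP lower were found in 0.538% of all genes on TPM. The change was -1.80 (SE 0.273, 95% interval -2.38 to -1.23, limma adjusted p 0.000408) on TPM, and -2.52 (SE 0.318, limma adjusted p 0.00183) after scaling. Rn7sk was called in all 12 fits that left out a library of these 2 groups, 6 on each scale, with limma adjusted p up to 0.0101.

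Bc1, the neuronal translation repressor, was also lower in APP. It stood at 155, 102 and 45.2 TPM in APP and at 334, 211 and 299 TPM in WT at 6 months. The highest APP library was below the lowest WT library, WT replicate 2. The Bc1 change was -1.62 (SE 0.372, limma adjusted p 0.0029) on TPM, and -2.33 (SE 0.425, limma adjusted p 0.0165) once scaled. It kept its call on TPM without any single library of the 2 groups and lost it after scaling only without WT replicate 1 (limma adjusted p 0.0796). Its list of neuronal markers did not go down with it: those 8 genes summed to 2155 to 3194 TPM in APP and 1353 to 1800 TPM in WT, and to 1915 to 2175 and 1924 to 2140 after scaling.

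Of the RNA subunits of the processing nucleases, Rmrp was called lower and Rpph1 was not. Rmrp stood at 1706, 1153 and 797 TPM in APP and at 2500, 1850 and 1823 TPM in WT, with the ranges apart by a small margin. The Rmrp change was -0.81 (SE 0.258, limma adjusted p 0.014) on TPM, and -1.53 (SE 0.322, limma adjusted p 0.0321) once scaled. On TPM it did not pass when APP replicate 3 (-0.54, limma adjusted p 0.0942) or WT replicate 1 (limma adjusted p 0.0713) was left out. On the scaled values it did not pass when any of APP replicates 2 and 3 and WT replicates 1 and 2 was left out, with limma adjusted p up to 0.128. Rpph1 stood at 5633, 1500 and 1244 TPM in APP and at 2984, 5838 and 8295 TPM in WT. APP replicate 1 lay inside the WT range and the other APP libraries far below it, and the change of -1.26 (SE 0.550, limma adjusted p 0.0626) did not pass the test, nor did -1.98 (limma adjusted p 0.0758) after scaling. Without APP replicate 1 it was -1.94 (limma adjusted p 0.00453), and without WT replicate 1 -1.67 (limma adjusted p 0.0343). Within a library, the ratio of Rmrp to Rn7sk was 0.350 to 0.401 in APP and 0.156 to 0.253 in WT at this age.

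**Figure D3:**
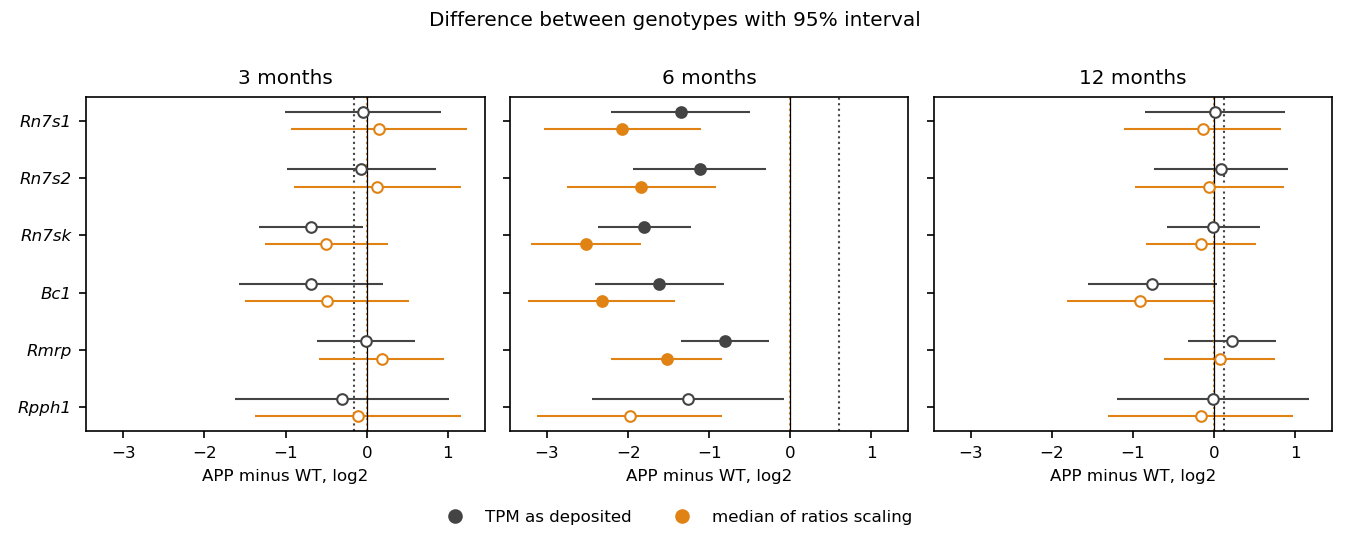
Log2 change of each RNA in APP against WT at 3, 6 and 12 months, on TPM and after median of ratios scaling, with bars for 95% intervals, filled points for called changes and dotted lines for the median change of all genes. At 6 months the 6 RNAs run from -1.80 to -0.81 on TPM, against a median of 0.60 for all genes.

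These values moved together with several features of the libraries. Protein-coding genes held 36.2% to 51.0% of TPM in APP and 26.6% to 28.5% in WT at 6 months. Choroid plexus markers summed to 43.9 to 1119 TPM in APP and 787 to 1104 TPM in WT, with 0 of 7 called. WT mice at 6 and 12 months expressed the Y-linked gene Ddx3y at 19.3 to 23.4 TPM with Xist at or below 0.438 TPM, and every other hippocampal group expressed Xist at 74.8 TPM or more, so genotype and sex cannot be told apart at these ages. The part of the protein-coding share and of the choroid markers in the result was not tested. The RNA had been separated by size into short and long fractions before library preparation, the members are 168 to 331 bases long, and the sources used here do not give the position of the separation.

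Other short RNAs shared the direction in part. Of a list of 8 other RNA polymerase III transcripts, 6 were found in the tables, 4 of these passed the filter and were tested, and all 4 fell at 6 months on TPM, with a median of -1.98. Rny1, a Y RNA that binds the Ro protein, stood at 7.51 to 33.7 TPM in APP and 101 to 110 TPM in WT and fell by 2.54 (limma adjusted p 0.000701). Rny3 fell by 2.76 (limma adjusted p 0.00592), Rn7s6 by 1.41 (limma adjusted p 0.00528) and the vault RNA Vaultrc5 by 0.94 (limma adjusted p 0.042). After scaling Rny1, Rn7s6 and Rny3 kept their calls. Of 16 tested entries for short RNAs made by RNA polymerase II, 3 were called lower. These were the spliceosomal RNAs Rnu5g (-2.94, limma adjusted p 0.000607), Rnu12 (-1.47, limma adjusted p 0.0253) and Rnu1b6 (-1.97, limma adjusted p 0.0278). The median change of the 16 was -1.53, so entries that were not called fell as well. In a wider class chosen after its values were seen, 623 other snRNA, snoRNA, scaRNA and misc_RNA genes of at most 331 bases, 34 were called lower and 82 higher on TPM, and 24 lower and 1 higher after scaling, with medians of 0.28 and -0.15. Among 12961 protein-coding genes 13 were lower and 8823 higher on TPM, and 115 lower and 63 higher after scaling.

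The proteins that make or bind these RNAs followed the bulk of genes at 6 months. Of 12 RNA polymerase III subunits 7 were called higher on TPM, among them Polr3e (0.79, limma adjusted p 0.000746) and Polr3a (0.73, limma adjusted p 0.00197), and of 19 transcription factor subunits and regulators 17, led by Brf1, the factor that recruits the polymerase (1.09, limma adjusted p 0.00046). Signal recognition particle proteins and their receptor gave 5 of 10, including Srp68 (0.69) and Srpr (0.98). Proteins of the 7SK particle gave 6 of 7, including Hexim1 (0.96), Ccnt1 (0.75) and Cdk9 (0.82), the kinase it restrains. RNase P and MRP proteins gave 6 of 12, including Nepro (0.89), and proteins known to bind BC1 gave 7 of 10, including Pabpc1 (1.05) and Pura (0.90). None of these 70 genes was called lower, and the medians of the 6 lists, 0.49 to 0.75, lay near the 0.60 of all genes. After scaling 0 of the 70 were called and the medians lay between -0.16 and 0.08. None of the genes on these 8 lists was called at 3 or 12 months.

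At 3 and 12 months the members were not called. At 3 months 0 of 6 passed the limma test on either scale, where 0.398% of all genes were called on TPM and 0.303% after scaling. At 12 months 0 of 6 passed, where 0.639% of all genes were called on TPM and 0.443% after scaling. At 3 months Rn7sk stood at 6350, 5325 and 7193 TPM in APP and at 8075 and 12551 TPM in WT, without overlap, as 28.4% of all genes did with APP lower. After scaling its ranges overlapped. At 12 months Rn7s1 ranged from 41040 to 107510 TPM in APP and from 52872 to 80551 TPM in WT, and Rn7sk from 7246 to 11918 and from 7777 to 9443 TPM. The 95% interval for Rn7sk at 12 months, -0.58 to 0.57, did not include its change at 6 months, and that for Rn7s1 ran from -0.85 to 0.87. Bc1 stood at 228, 233 and 209 TPM in APP and at 390, 386 and 361 TPM in WT at 12 months. These ranges were narrow and did not overlap, as for 1.5% of all genes with APP lower, but the change of -0.76 (SE 0.372, limma adjusted p 0.678) was not called. With the 12-month groups fitted alone the limma adjusted p was 0.0120. The share of all genes called in that fit is not given, so this call is a description.

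The test of whether the genotype difference varied with age was passed by Rn7sk and by no other member. The genotype by age term of Rn7sk had a limma adjusted p of 0.00813 on TPM, where 33.1% of all genes were called, and 0.0472 after scaling, where 0.437% were. It kept the call in all 17 fits on TPM that left out a library, and in 3 of 17 after scaling, where the limma adjusted p ran from 0.0296 to 0.104. The other 5 were not called, with limma adjusted p from 0.0729 for Rmrp to 0.371 for Rpph1 on TPM, and from 0.117 to 0.302 after scaling. With the replicate block, Rmrp had a limma adjusted p of 0.0353.

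Ordered by group mean, WT at 6 months was the highest group for Rn7s1, Rn7s2, Rn7sk and Rpph1, and APP at 6 months the lowest hippocampal group for all 6. Most neighbours in these orders overlapped. For Rn7sk the order was WT at 6 months with 10692 ± 902 TPM (SD, n = 3), WT at 3 months, APP at 12 months, WT at 12 months, APP at 3 months with 6289 ± 936 TPM (SD, n = 3) and APP at 6 months with 3213 ± 1185 TPM (SD, n = 3). The steps from WT at 12 to APP at 3 months and from APP at 3 to APP at 6 months were without overlap. For Bc1 the order was WT at 12 months with 379 ± 15.8 TPM (SD, n = 3), WT at 6 months, WT at 3 months, APP at 12 months, APP at 3 months and APP at 6 months with 101 ± 54.9 TPM (SD, n = 3). The steps from WT at 12 to WT at 6 months and from WT at 3 to APP at 12 months were without overlap. These orders and steps are on TPM. After scaling over all 31 libraries the Bc1 order was the same, but only the step from WT at 6 to WT at 3 months was without overlap. For Rn7sk WT at 12 months then came next after WT at 6 months. Its hippocampal steps without overlap were that one and the step from APP at 3 to APP at 6 months.

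In HT-22 cells the 7SL, 7SK and RNase P RNAs were lower than in WT hippocampus and Bc1 was close to 0. The comparison set reverse peptide with scramble LNA against the mean of the 3 WT ages. Line and tissue were separate experiments, so the difference between the samples and that between the experiments cannot be told apart. On TPM 25.8% of 19596 genes were called lower and 58.7% higher by limma, with a median change of 0.76, and after scaling 43.5% lower and 33.3% higher, with a median of -0.13. Rn7s1 stood at 26769, 5915, 14407 and 22967 TPM in these HT-22 libraries, a wide spread that lay wholly below the WT range of 51574 to 117360 TPM. Its change was -2.28 (SE 0.348, limma adjusted p 1.25e-06) on TPM, and -3.39 once scaled. Rn7s2 changed by -2.26 and -3.37, Rpph1 by -2.28 and -3.39, and Rn7sk by -1.56 and -2.67, all called on both scales and without overlap. The share of all genes without overlap in this comparison is not given, so the separation is not shown to be particular to these members.

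Bc1 changed by -6.41 (SE 0.417, limma adjusted p 1.48e-13) on TPM, and by -7.29 once scaled, from 211 to 390 TPM in WT hippocampus to at most 9.83 TPM in any HT-22 library. It was listed at 0 in 4 of the 14 HT-22 libraries, so its fitted change is not a bound. The neuronal marker list moved with it: 7 of its 8 genes were below 1 TPM in every HT-22 library and the list summed to 4.02 to 12.0 TPM, against 1353 to 3194 TPM in hippocampus. Likewise 7 of 8 hippocampal subfield markers were below 1 TPM in every HT-22 library, so the libraries do not show the neuronal markers of the line's labelled origin.

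Rmrp was the member whose level did not go down in the line on TPM. It stood at 4728, 1514, 3366 and 2202 TPM in HT-22 with reverse peptide and scramble and at 1412 to 2500 TPM in WT, with overlap. It changed by 0.57 (SE 0.231, limma adjusted p 0.0246) on TPM but by -0.54 (limma adjusted p 0.057) after scaling, so its direction depends on the scaling. The ratio of Rmrp to Rpph1 within a library does not depend on it: this was 0.220 to 0.876 in hippocampus and 1.53 to 5.15 in HT-22, with no overlap over 31 libraries. By contrast the ratio of Rpph1 to Rn7s1 was 0.0572 ± 0.0148 (SD, n = 17) in hippocampus and 0.0550 ± 0.00755 (SD, n = 14) in HT-22, with ranges of 0.0396 to 0.0938 and 0.0439 to 0.0695. The ratio of Rn7sk to Rn7s1 overlapped, at 0.0689 to 0.243 and 0.0974 to 0.496.

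**Figure D4:**
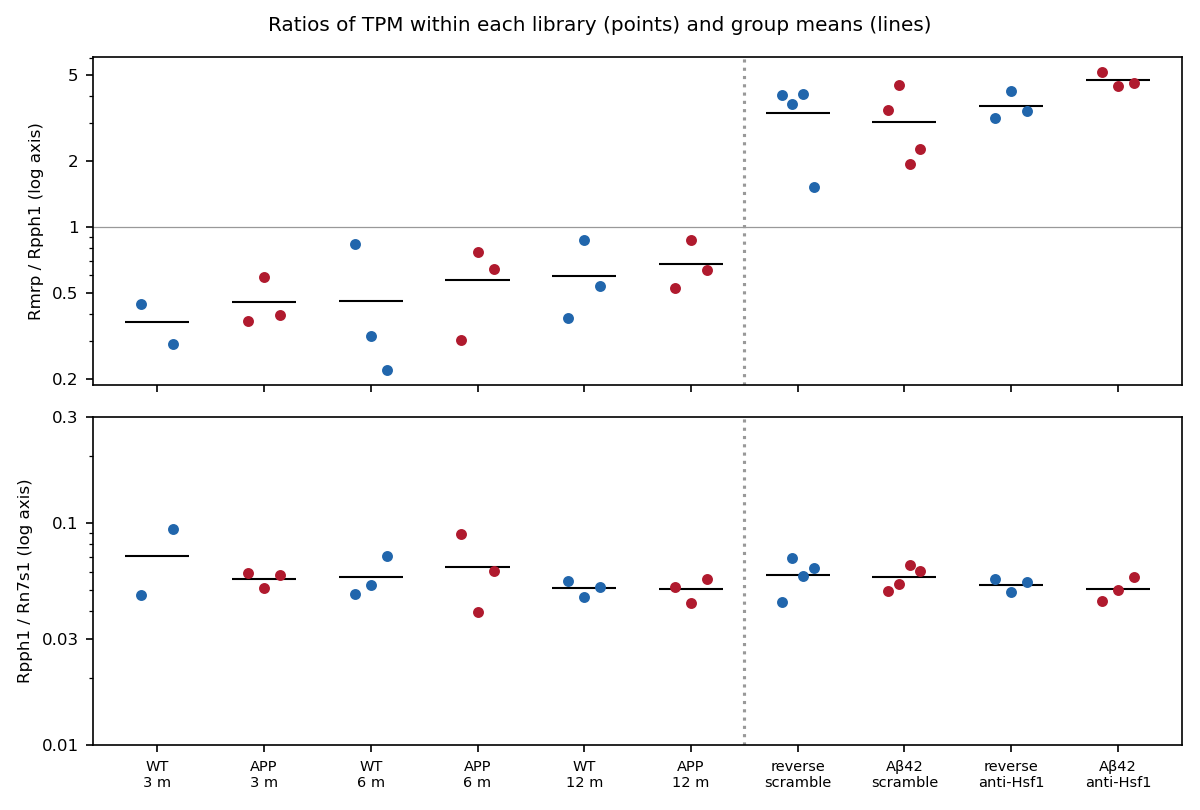
Ratios between members within each library, by group, on log axes; each point is a library and each line a group mean. Rmrp over Rpph1 separates HT-22 (1.53 to 5.15) from hippocampus (0.220 to 0.876), whereas for Rpph1 over Rn7s1 the HT-22 libraries (0.0439 to 0.0695) lie within the hippocampal range (0.0396 to 0.0938).

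The protein partners are given beside the shares of all genes, 58.7% higher and 25.8% lower on TPM and 33.3% higher and 43.5% lower after scaling, and several of the counts lie near those shares. All 12 polymerase III subunits were called higher in HT-22 on TPM, among them Polr3c (2.17) and Polr1c (2.19), and after scaling 5 were higher and 3 lower. Of 7 tested 7SK particle proteins 6 were higher on TPM, including Larp7 (2.28) and Ccnt1 (2.43), and 4 were higher and 1 lower after scaling. Of 12 RNase P and MRP proteins 9 were higher and 1, Rpp25 (-2.30), lower on TPM, and 2 higher and 6 lower after scaling. Of 10 signal recognition particle proteins 6 were higher and 2 lower on TPM, and 4 higher and 5 lower after scaling. Among 10 BC1-binding proteins 7 were higher, including the poly(A)-binding protein Pabpc1 (3.85), and 3 lower on TPM, and 4 were higher and 3 lower after scaling.

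Between the 4 HT-22 groups, the 5 members other than Bc1 were not called in any comparison. Hsf1 was read to check the labels. It stood at 27.7, 44.0 and 30.8 TPM with Aβ42 in the libraries labelled anti-Hsf1 and at 60.3 to 80.0 TPM with Aβ42 and scramble, but at 45.7 to 59.9 and 42.9 to 70.6 TPM with reverse peptide, where the groups overlapped. With Aβ42 the Hsf1 difference was -1.07 (limma adjusted p 0.00113) on TPM and -0.37 (limma adjusted p 0.521) after scaling, so the reduction in Hsf1 itself depends on the scaling.

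Aβ42 against reverse peptide under scramble gave 0 calls among 17291 genes by limma on either scale (1489 genes at an unadjusted p below 0.05 on TPM and 866 after scaling), and 0 of the members. Rn7s1 stood at 12758, 10278, 22409 and 13109 TPM with Aβ42, inside the reverse peptide range of 5915 to 26769 TPM. Rn7sk stood at 2898, 2053, 2182 and 1631 TPM with Aβ42 and at 6539, 2932, 2677 and 2396 TPM with reverse peptide, where replicate 1 was far above the rest. The 95% interval of its difference on TPM ran from -1.40 to 0.13. Anti-Hsf1 against scramble with reverse peptide likewise gave 0 calls on either scale (468 and 627 genes at an unadjusted p below 0.05). There Rn7s1 ranged from 6956 to 11315 TPM, Rpph1 from 338 to 609 TPM and Rmrp from 1423 to 2075 TPM under anti-Hsf1, each overlapping scramble. Aβ42 against reverse peptide under anti-Hsf1 called 24.3% of genes on TPM, of which 4190 of 4197 were lower, and 0 after scaling (794 at an unadjusted p below 0.05), and no member on either scale. All members overlapped on TPM. After scaling Rn7s1 (0.71), Rn7s2 (0.68), Rpph1 (0.64) and Rmrp (1.05, 95% interval 0.35 to 1.75) were higher with Aβ42, without overlap. Rn7sk (0.32) and Bc1 (1.57) overlapped. The share of all genes without overlap there is not given, so these uncalled differences are a description.

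**Figure D5:**
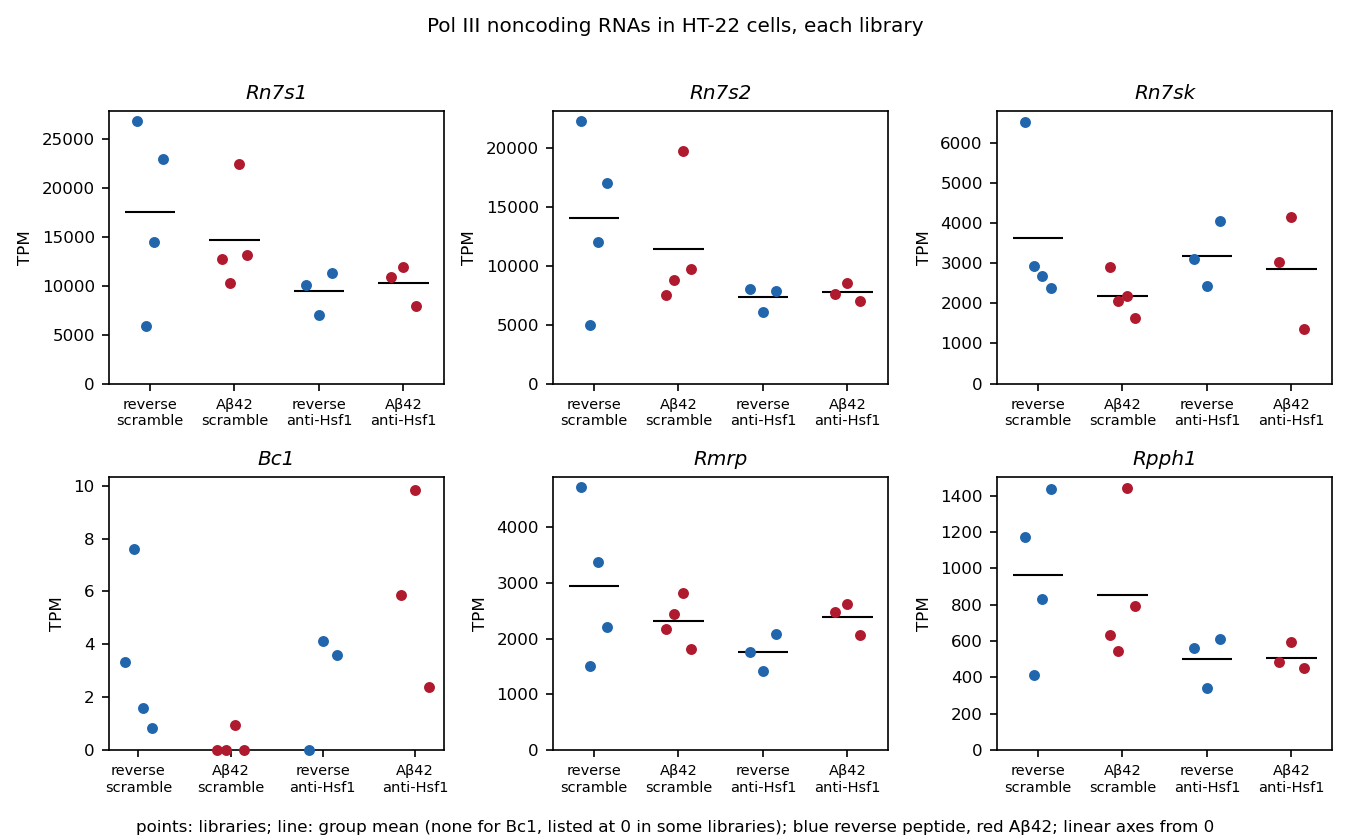
Levels of the 6 RNAs in the 14 HT-22 libraries, by peptide and LNA, in TPM on linear axes from 0; each point is a library and lines are group means, left out for Bc1, which is listed at 0 in 4 libraries. Rn7s1, Rn7s2 and Rpph1 spread widely under scramble with reverse peptide, and Bc1 stays at or below 9.83 TPM.

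With Aβ42, Bc1 was higher in the libraries labelled anti-Hsf1 than in scramble on TPM, at a level near the limit of the data. It stood at 5.87, 9.83 and 2.37 TPM under anti-Hsf1 and was listed at 0, 0, 0.924 and 0 TPM under scramble. The groups did not overlap, as for 0.162% of genes with anti-Hsf1 higher. The difference was 2.42 (SE 0.617, limma adjusted p 0.0058), where 0.15% of genes were called higher and 50.5% lower, and 2.85 (limma adjusted p 0.236) after scaling, where 0.0231% of genes, 4 in all, were called higher. The mean read coverage of Bc1 was at most 6.30 per base in any HT-22 library, so few reads stand behind each value. With reverse peptide, Bc1 stood at 0, 4.14 and 3.58 TPM under anti-Hsf1 and at 3.33, 7.63, 1.57 and 0.831 TPM under scramble, with overlap. The difference between these effects was 2.77 (SE 0.873, limma adjusted p 0.0355) on TPM, where 0.0578% of genes were called higher and 25.3% lower, and 3.19 (limma adjusted p 0.766) after scaling. It lost its call on TPM in 7 of the 14 fits that left out a library, with limma adjusted p up to 0.0937, reached without replicate 1 of reverse peptide with anti-Hsf1. The same libraries differed in the abundant transcript Gm23935, at 154560 to 442700 TPM with Aβ42 and anti-Hsf1 and 53743 to 130080 TPM with Aβ42 and scramble. Both Bc1 calls on TPM were lost when Gm23935, mt-Rnr1 and mt-Rnr2 were removed together. The part of Gm23935 alone in the Bc1 result was not tested.

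In the same comparison the other members were not called on either scale, and their changes on TPM ran from near that of the median gene to above 0. Over all genes the median change was -0.62 on TPM and 0.00 once scaled, and over the 6, Bc1 included, it was -0.20 and 0.52. Rpph1 changed by -0.65, Rn7s1 by -0.48, Rn7s2 by -0.46, Rmrp by 0.06 and Rn7sk by 0.27 on TPM. Rmrp stood at 2485, 2628 and 2068 TPM under anti-Hsf1 and at 2170, 2435, 2812 and 1813 TPM under scramble, a full overlap, and Rn7sk at 3043, 4149 and 1370 against 1631 to 2898 TPM. After scaling the Rmrp ranges, 3059 to 3873 and 1608 to 2327, did not overlap. The share of all genes without overlap there is not given, so this separation is a description. The Rmrp change was then 0.79 (95% interval 0.13 to 1.44, limma adjusted p 0.521). Rn7sk changed by 0.99 (limma adjusted p 0.521) once scaled, with overlap, and Rn7s1, Rn7s2 and Rpph1 by 0.25, 0.26 and 0.07. The proteins of the same particles were called lower on TPM in 10 of 12 polymerase III subunits, 13 of 19 transcription factor genes, 4 of 10 signal recognition particle proteins, 7 of 7 for 7SK, 7 of 11 for RNase P and MRP and 8 of 10 for BC1, and 0 of them were called after scaling.

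Genes with the most similar course over the libraries were mostly other short RNAs and members themselves. Over the 17 hippocampal libraries, on the log2(scaled TPM + 1) scale and among genes with a mean of at least 5 TPM, Rn7s1 was most like Rn7s2 (Pearson r 0.995), Rn7s6 (0.993) and Gm22442 (0.932). Rn7sk was most like the predicted misc_RNA genes Gm26035 (0.955), Gm24447 (0.953) and Gm26315 (0.946), which had mean TPM of 17.6, 2472 and 2082. Whether Rn7sk and these entries share reads was not tested. Bc1 was most like Rn7sk (0.911), Gm8894 (0.904) and Gm24447 (0.894). Rmrp was most like Naa38 (0.930) and Rpph1 most like Gm25395 (0.931). Over the 14 HT-22 libraries Rn7s1 was most like Rn7s2 (0.961), Rpph1 (0.948) and the histone gene Hist1h4f (0.928), Rn7sk like Gm24447 (0.916), and Rmrp like the histone genes Hist1h2ak (0.904) and Hist1h4j (0.903). Rn7s1 and Rn7s2 are identical in sequence, so their correlation follows from how reads were assigned and does not show separate genes with a shared course. Rn7s6 is 85.1% identical to Rn7s1, and whether they share reads was not tested. These correlations share their libraries, depth and scaling and are given as a description.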

How the data were processed

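RNA from hippocampus and HT-22 cells had been split by a size-selection kit, and the long fraction was fragmented, depleted of ribosomal RNA and made into libraries with an NEBNext Ultra kit, per the labels' protocols. The submitters' processing notes name cutadapt 1.18, BWA 0.7.17, HISAT2 2.1.0, bedtools 2.26.0, StringTie 1.3.4d and FastQC, with the builds mm10 and GRCm38, without roles. The authors deposited gene tables with TPM, FPKM and mean coverage per gene, per the file headers. Counts are not given there, so counting error per value is unknown; coverage divided by FPKM, a relative measure of depth, was 1.42 to 3.04 in hippocampus and 0.724 to 2.60 in HT-22. The 31 short-RNA libraries were not used here. Of 53934 identifiers found in GENCODE M21, 98.3% had its start and end.

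TPM was summed per gene identifier. limma 3.58.1 (R 4.3.3; trend and robust) was run on log2(TPM + 1) for genes with a mean of at least 1 TPM, without a replicate block, over all 17 hippocampal or 14 HT-22 libraries, or all 31 for line against tissue. Benjamini-Hochberg adjustment covered all genes, with calls below 0.05. A fold change on this scale understates that of low genes. Alternatives were median of ratios scaling, removal of Gm23935, mt-Rnr1 and mt-Rnr2, a pseudocount of 0.1, no filter or a minimum mean of 5 TPM, the groups alone, a replicate block, 7SL summed and leaving out each library. Members and lists were chosen with earlier results of these data known. Of each list, up to 3 called genes with the smallest adjusted p could be named, and for each member the 3 most correlated genes. The fits were tested on simulated data.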

Additional observations from a re-analysis of the deposited data

Results flagged for a closer look

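In HT-22 cells with reverse peptide and scramble, Rn7sk was far higher in replicate 1 than in the other 3 libraries, at 6539 against 2396 to 2932 TPM. The gap to the nearest library was 0.871 of the group's range on TPM and 0.845 after median of ratios scaling. In the Aβ42 and scramble group, Bc1 was listed at 0.924 TPM in replicate 3 and at 0 in the other libraries, so the gap was the whole range, 1 on either scale. These were found among 12 combinations of member and group examined per scale, and chance marks about 1 in 20 groups whose values vary without ties. That rate does not apply to Bc1, where the values tied at 0 fix the gap at 1 for any other value.

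The genotype difference of Rn7sk differed between ages, with an adjusted p of 0.00813 on TPM and 0.0472 after median of ratios scaling for the genotype by age term in limma. The sex of the WT mice also differed between ages, and age and sex cannot be told apart in this term. The effect of the anti-Hsf1 label on Bc1 differed between Aβ42 and reverse peptide, with an adjusted p of 0.0355 for the interaction in limma on TPM, but 0.766 after median of ratios scaling, and on TPM it was lost in 7 of the 14 fits that left out a library.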

How the results depend on the processing

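Depth limits Bc1 in HT-22, where few reads stand behind each value, and the lack of counts leaves counting error unknown for all members. Groups of 2 to 4 libraries limit every test, and at 6 and 12 months sex and genotype cannot be told apart. Fits that combine median of ratios scaling with a left-out library or with the replicate block, and the addition of Gm47299 to Rn7s2, were chosen after seeing the data.

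The scaling set how many genes were called in all, 10339 on TPM and 297 after median of ratios scaling at 6 months, 71 and 54 at 3 months, 114 and 79 at 12 months, 5910 and 78 for genotype by age, 4197 and 0 for Aβ42 under anti-Hsf1, 8766 and 4 for anti-Hsf1 with Aβ42, and 4379 and 0 for the peptide by LNA term. At 6 months 5 members were called under each alternative that kept all libraries except 2: removing Gm23935, mt-Rnr1 and mt-Rnr2 added Rpph1 (-1.29, limma adjusted p 0.0294), and without the filter Rn7s2 lost its call (limma adjusted p 0.0502). With 7SL summed, 4 entries were called, 7SL among them. With a library left out the count ran from 1 to 6, from 2 to 6 on TPM and from 1 to 6 after scaling, the lowest without WT replicate 1. At 12 months fitting the groups alone gave 1 call, Bc1, in a fit whose share of all genes called is not given. For genotype by age the count ran from 0 to 3 with a library left out, from 1 to 3 on TPM and from 0 to 1 after scaling. The Bc1 call for anti-Hsf1 with Aβ42 was lost, with 0 members called, after median of ratios scaling with or without the block and without the 3 abundant RNAs; at a mean of at least 5 TPM Bc1 was not tested in HT-22, so 0 were called. With a library left out this count ran from 0 to 1, with 1 in all 7 fits on TPM. The peptide by LNA count was 0 under the same settings and without the filter, and 0 to 1 with a library left out. For line against tissue the count ran from 5 to 6. Rmrp there was -0.54 after median of ratios scaling and -0.43 with the block added, and ran from -0.82 to 0.85 with a library left out, negative in all 12 scaled fits and positive in all 12 on TPM; its call on TPM was also lost without the 3 abundant RNAs (0.28, limma adjusted p 0.269) and with the groups alone (limma adjusted p 0.0551). The cause of these changes was not tested.

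Same-numbered replicates had r of -0.07 to 0.12 between hippocampal groups and -0.21 to 0.56 between HT-22 groups. At 3 and 6 months each number shared by APP and WT correlated best with itself, at r of 0.03 to 0.12. At 12 months none did. In HT-22, replicate 4 of the scramble groups had r of 0.56, against at most -0.21 with other numbers. Most other HT-22 numbers did not correlate best with themselves. The r values therefore do not settle whether the numbers pair the samples. With a replicate block the genotype by age count was 2, and no other count of members on TPM changed side. Of 39 changes of members not given one by one, 0 were called on TPM; over 950 alternative fits 124 had the opposite sign and 0 passed the threshold.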
